A study of Mus musculus with 4 samples.

Results

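Interferon response genes and chemokines were followed in mouse liver, in control mice and in hepatic reductase null mice, by their probe sets on the MG_U74Av2 array. A probe set was taken where the array's annotation gives it a single gene symbol that starts with Ifi, Ifit, Irf, Isg, Oas, Gbp or Stat (interferon response) or with Ccl, Cxcl, Ccr or Cxcr (chemokines and their receptors), followed by a digit. The rule uses no measured value. It gave 77 probe sets of 67 genes, out of 10833 probe sets of 8251 genes with a single symbol. Of these, 38 probe sets of 32 genes belong to the interferon response and 39 probe sets of 35 genes to the chemokines and receptors. Irf2bp1, which is a binding partner of an interferon regulatory factor rather than one of them, came in by its name.

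The series holds 4 arrays, 2 of control liver (replicates 7 and 8, titled WT) and 2 of hepatic reductase null liver (replicates 7 and 8). The reductase is taken to be NADPH-cytochrome P450 oxidoreductase, the electron donor of the microsomal P450 enzymes. The labels name neither the allele nor the promoter or cell type that limits its loss, and nothing is stated there of strain, sex, age or diet. The protocol text describes pools of 3 animals, but control titles name a mouse, so the source of an array's RNA (pool or single animal) is unclear and p-values measure only the spread between these samples. The targeted gene was not analysed here. The median signal of an array lay between 26.1 and 28.4, and summed signals of 10 hepatocyte markers were 50355 and 49137 in control liver against 47490 and 45527 in null liver. Of these markers 7 had negative changes (median -0.20) and 0 passed the test, with 5 lower and 0 higher at an unadjusted p under 0.05, against 6.46% and 6.16% of all tested probe sets. The labels give no batch.

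Interferons bind receptors whose Janus kinases activate STAT proteins. Complexes that hold IRF9 bind the interferon-stimulated response element (ISRE) of antiviral genes, and the GAS element is found at genes induced by interferon gamma. Chemokines are small secreted proteins that call leukocytes through receptors on those cells. In liver they come from Kupffer cells, endothelium, stellate cells and hepatocytes, and NF-kB drives many of the inflammatory ones.

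Upstream sequences of 6 members show these elements, since the values below are also read by which element a gene carries. Promoter entries of RefSeq on GRCm38.p6 matched 56 of the 67 genes. Ccl2, Ccl5, Ifi27 and Ifi27l2a were among those without an entry, so they were not searched for these elements. The 220 bases before the annotated start are given 5′ to 3′ on the gene's strand. Capitals mark matches on either strand to the ISRE (GAAA, 2 bases of any kind, GAAA), the GAS element (TTC, 3 bases of any kind, GAA) or the NF-kB element (GGG, 3 bases of any kind, TTCC), and overlapping matches run together.
Isg15 (chr4:156200819-156201038, minus strand): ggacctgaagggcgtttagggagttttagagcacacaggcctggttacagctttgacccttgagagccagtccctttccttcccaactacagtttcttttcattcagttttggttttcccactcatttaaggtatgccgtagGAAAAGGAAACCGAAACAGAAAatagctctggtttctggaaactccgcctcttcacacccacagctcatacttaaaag
Ifit1 (chr19:34640669-34640888, plus strand): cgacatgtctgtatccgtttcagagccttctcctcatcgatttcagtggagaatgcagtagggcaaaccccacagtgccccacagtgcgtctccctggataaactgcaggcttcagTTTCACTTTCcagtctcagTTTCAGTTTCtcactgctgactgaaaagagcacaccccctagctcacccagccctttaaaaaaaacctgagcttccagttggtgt
Gbp7 (chr3:142530116-142530335, plus strand): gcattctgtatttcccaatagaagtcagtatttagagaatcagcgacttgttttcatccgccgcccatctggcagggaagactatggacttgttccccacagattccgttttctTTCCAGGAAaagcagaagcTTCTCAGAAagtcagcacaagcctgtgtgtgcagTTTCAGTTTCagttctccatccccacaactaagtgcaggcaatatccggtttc
Cxcl1 (chr5:90891025-90891244, plus strand): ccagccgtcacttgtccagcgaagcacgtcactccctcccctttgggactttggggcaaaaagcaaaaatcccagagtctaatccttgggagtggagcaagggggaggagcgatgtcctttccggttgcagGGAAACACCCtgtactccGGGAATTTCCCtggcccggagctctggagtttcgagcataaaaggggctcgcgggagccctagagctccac
Cxcl2 (chr5:90903679-90903898, plus strand): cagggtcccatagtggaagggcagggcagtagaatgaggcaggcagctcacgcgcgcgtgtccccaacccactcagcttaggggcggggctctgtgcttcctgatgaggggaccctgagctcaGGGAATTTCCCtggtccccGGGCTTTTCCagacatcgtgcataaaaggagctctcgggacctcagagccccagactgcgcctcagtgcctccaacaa
Cxcl10 (chr5:92348890-92349109, minus strand): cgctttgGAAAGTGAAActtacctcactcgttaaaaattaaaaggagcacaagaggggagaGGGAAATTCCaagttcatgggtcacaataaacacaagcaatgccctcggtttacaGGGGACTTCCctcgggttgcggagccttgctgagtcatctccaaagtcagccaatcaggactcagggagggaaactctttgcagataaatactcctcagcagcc
Isg15 held 3 ISRE matches in this window, which overlap, Ifit1 held 2, and Gbp7 held 1 beside 2 GAS matches. Cxcl1 and Cxcl2 each held 3 NF-kB matches, some of them overlapping, and Cxcl10 held 2 beside 1 ISRE match. Over the 250 bases upstream, the ISRE was found in 34.5% of 29 interferon response genes, 7.41% of 27 chemokine and receptor genes and 3.46% of all 27025 genes with an entry. The NF-kB element was found in 10.3%, 25.9% and 5.31% of them, and the GAS element in 24.1%, 14.8% and 8.13%. A match is a description of letters and was not tested for binding.

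No tested member changed past the threshold. Both null arrays had higher signals than both control arrays for the monocyte attractant Ccl2, for Ccl22 and for the interferon-induced Ifi27l2a, and lower signals for Irf5 and Ifi27. Of the 29 interferon response probe sets bright enough to be tested, 0 rose and 0 fell by limma at an adjusted p under 0.05, against 0.387% of all 7241 tested (0.304% higher and 0.0829% lower). Of the 14 tested chemokine and receptor probe sets, 0 rose and 0 fell too. At an unadjusted p under 0.05 there were 3 interferon response probe sets (1 higher, 2 lower) and 2 chemokines (both higher). Those 5 of 43 are 11.6%, where 12.6% of all tested probe sets lay (6.16% higher and 6.46% lower), so the share is near the background. In bulk liver, fewer cells of a type and less RNA per cell cannot be told apart.

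Much of the set lay near background, and the receptors most of all. A probe set was tested where its mean log2 signal exceeded log2 of 16.8, the 40th percentile of all signals, after signals were floored at 7.1, the 25th percentile. This left 29 of 38 interferon response probe sets (76.3%) but 14 of 39 chemokine and receptor probe sets (35.9%), against 58.3% of all probe sets. Of the chemokine and receptor probe sets, 24 were at or below the floor on at least 1 array and 5 on all arrays (Ccl4, Ccl8, Ccl11, Ccl12 and Ccr8). Of the interferon response probe sets, 7 were at or below it on at least 1 array and 2 on all arrays (Ifit2, an antiviral protein, and Irf4, a lymphoid factor). Cxcr3 was the only one of 13 receptor probe sets to be tested.

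**Figure D1:**
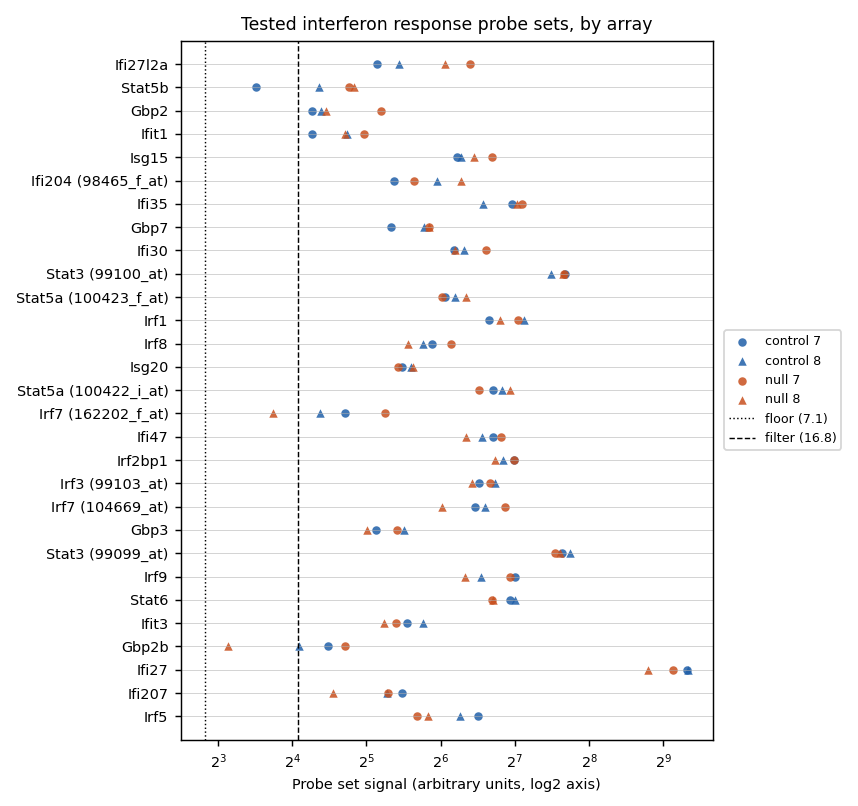
Signal of each of the 29 tested interferon response probe sets on the 4 arrays (log2 axis, arbitrary units), ordered by the change from control to null liver. Dotted and dashed lines mark the floor at 7.1 and the filter at 16.8, and most probe sets have null and control points interleaved, with Ifi27l2a at the top and Irf5 at the bottom set apart.

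Among the STATs, which carry the signal from the receptor to the nucleus, 0 passed the test, and Stat5b differed most. Stat3, the mediator of interleukin 6, stood on one probe set at 198.7 and 214.4 in control liver (replicates 7 and 8, the order used throughout) and at 185.5 and 195.2 in null liver, and at 204.3 and 179.7 against 201.9 and 200.2 on another. Its log2 changes, -0.12 ± 0.14 and 0.07 ± 0.14 (SE), differed in sign and lay within their errors. Stat6, the mediator of interleukin 4, stood at 122.1 and 128.1 in control liver and 103 and 104.6 in null liver. Those groups did not overlap, yet the difference of -0.27 ± 0.16 did not pass (adjusted p = 0.531). Stat5b, which growth hormone activates in liver, stood at 11.4 and 20.6 against 27.3 and 28.5 (0.86 ± 0.47, adjusted p = 0.513). It passed the filter through the null arrays only. The close relative Stat5a stood at 104 and 113.8 against 91.8 and 122.3 on one probe set and at 66.6 and 73.5 against 65 and 81.1 on another (-0.04 ± 0.20 and 0.05 ± 0.20), and Stat4 was not tested, with 10.3 and 2.3 against 4.4 and 1.7.

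Among the interferon regulatory factors, which bind ISRE-like sites, Irf5 differed most. Irf5, a factor of macrophages that acts after Toll-like receptors, stood at 90.4 and 77 in control liver and at 51.5 and 57 in null liver. Both null signals lay below both control signals, a log2 change of -0.62 ± 0.20 (1.54-fold lower, adjusted p = 0.268). Its log2 change ranged from -0.74 to -0.50 over all settings tried.

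The factors that interferons themselves induce or use had overlapping groups. Irf1, induced by interferon gamma, stood at 100.8 and 139 against 132.3 and 111.9 (0.04 ± 0.21). Irf9, the DNA-binding part of the complex on the ISRE, stood at 128.5 and 93.5 against 122.8 and 80.6 (-0.14 ± 0.26). Irf7, the main amplifier of type I interferon, stood at 88.3 and 96.6 against 116.8 and 64.9 (-0.09 ± 0.29). The null arrays thus lay on either side of the control arrays for Irf7, and its second, dimmer probe set did the same (26.1 and 20.7 against 38.2 and 13.4). Irf8, a myeloid factor, stood at 58.9 and 54.4 against 70.2 and 47.1 (0.02 ± 0.25). Irf3, the factor that viral sensors activate, stood at 91.3 and 106 against 101.5 and 85.5 on its tested probe set (-0.08 ± 0.19), and Irf2bp1 at 127.5 and 114.7 against 126.4 and 106.5 (-0.06 ± 0.17). In each of these the null arrays overlapped the control arrays. The direction of Irf1, Irf3, Irf7, Irf8, Irf9 and Irf2bp1 turned when an array was left out.

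Among the effector genes Ifi27l2a, a small mitochondrial protein of the interferon response, had the smallest p of the class. It stood at 35.4 and 43.4 in control liver and at 84.4 and 66.8 in null liver, a log2 change of 0.94 ± 0.24 (1.92-fold, adjusted p = 0.177). Its relative Ifi27 went the other way, from 637.7 and 647.8 to 561.3 and 445.1 (-0.36 ± 0.14, adjusted p = 0.345). Neither gene's groups overlapped, and both lie on chromosome 12. Isg15, the ubiquitin-like modifier that is a standard readout of type I interferon, stood at 74.5 and 77.1 against 103.8 and 87.3 (0.33 ± 0.18, adjusted p = 0.517). Both null signals were the higher ones, by 1.26-fold on average.

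The Ifit proteins, which bind viral RNA, did not move together. Ifit1 stood at 19.3 and 26.6 against 31.4 and 26.1 (0.34 ± 0.37). Ifit3 stood at 46.9 and 54.5 against 42 and 37.6 (-0.35 ± 0.24), with the null arrays below the control arrays. Ifit2 lay between 2 and 3.2 on all arrays, below the floor. Among the guanylate binding proteins, GTPases induced by interferon gamma, Gbp7 stood at 40.2 and 54.6 against 57.3 and 57.6 (0.29 ± 0.24) and Gbp2 at 19.2 and 21 against 36.5 and 21.9 (0.49 ± 0.42). Gbp3 (-0.11 ± 0.29) and Gbp2b (-0.36 ± 0.65) were on the negative side, each within its error. Gbp2b, at 22.3 and 17.1 against 26.3 and 8.8, passed the filter through its control arrays only. Ifi35 stood at 124.9 and 95.3 against 137.2 and 130.6 (0.30 ± 0.19), and Ifi47, an immunity-related GTPase, at -0.05 ± 0.21. Of the DNA-sensing Ifi200 genes, Ifi207 (44.7 and 38.9 against 39.2 and 23.4, -0.46 ± 0.34) and a probe set of Ifi204 that can bind related transcripts (41.2 and 62.1 against 49.8 and 77.7, 0.30 ± 0.31) had overlapping groups. The exonuclease Isg20 (-0.02 ± 0.23) and the lysosomal reductase Ifi30 (0.16 ± 0.21) lay within their errors.

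Over the 29 tested interferon response probe sets 13 changes were positive and 16 negative, with a median of -0.04 on the log2 scale against -0.01 over all tested probe sets. The median turned to 0.16 without null replicate 8. Among the 29, Stat5b (positive) passed the filter through its null arrays only and Gbp2b (negative) through its control arrays only. Over all 38 members, null signals lay above control signals without overlap in 8 (21.1%), against 15.7% of all probe sets, and below them in 5 (13.2%), against 16.7%. Of the 10 genes with an ISRE upstream, 8 were tested, with 4 positive and 4 negative changes between -0.46 (Ifi207) and 0.49 (Gbp2). Their median was 0.09 and 0 passed, and Gbp2b is among the 4 negative ones. Both null arrays lay above both control arrays for 3 of the 10 (Isg15, Gbp2 and Gbp7) and below them for Ifit3.

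The null replicates were split for this class. Of the 29 probe sets 20 were higher on null replicate 7 than on null replicate 8 (69.0%), where 46.9% of all tested probe sets were. Irf family probe sets were so in 7 of 8 cases. The control replicates differed too: 10 of the 29 were higher on control replicate 7 than on control replicate 8 (34.5%), against 47.8% of all tested probe sets. The median deviation from a probe set's own mean over the arrays was 0.14 on null replicate 7 and -0.12 on null replicate 8, against -0.02 and 0.06 on control replicates 7 and 8. Over all tested probe sets these medians lay between -0.01 and 0.02. Null replicate 7 also had a summed signal of 2624.9 for 5 pancreatic acinar markers, where the other arrays had 212.2 to 327.2, and the highest sum for 14 T and NK cell markers (191.1, others 122.7 to 149.3). Only 2 of the latter were tested, and Cd3d was at the floor on every array. Their part in the split was not tested.

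**Figure D2:**
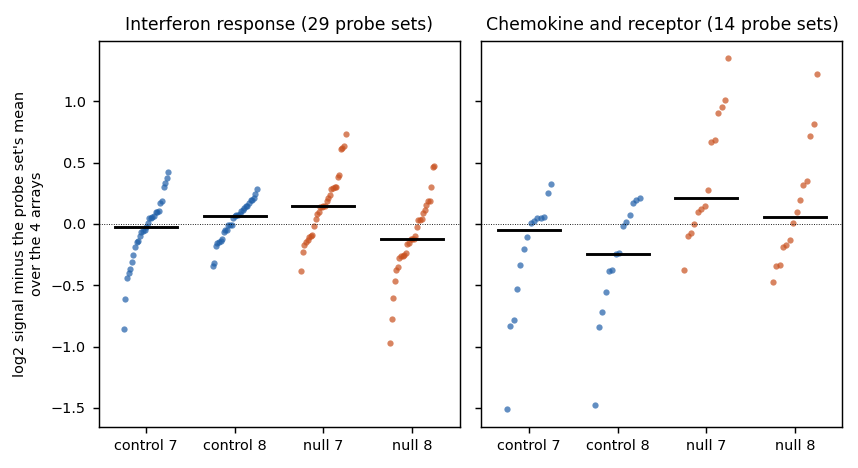
Deviation of each tested probe set from its own mean over the 4 arrays (log2 scale), by array, for 29 interferon response and 14 chemokine and receptor probe sets; black bars are medians. For the interferon response the bars lie at 0.14 on null replicate 7 and -0.12 on null replicate 8, while for chemokines both null bars lie above both control bars. Ccl2, Ccl22, Ccl5 and Cxcr3 passed the filter through their null arrays only, so this order of the chemokine bars lends no support.

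The chemokines with the largest differences were dim ligands with higher signals in null liver. Ccl2, the CCR2 ligand that recruits monocytes, stood at 4.4 and 12.3 in control liver and at 40.8 and 47.1 in null liver. Both null signals exceeded both control signals, by 2.23 ± 0.47 on the log2 scale (4.69-fold) with the lower control value set to the floor (adjusted p = 0.126). The fold depends on that floor: over all settings in which Ccl2 was tested the log2 change ran from 0.69 to 2.63, with adjusted p from 0.103 to 0.443. Without null replicate 7, without null replicate 8 or with the filter at the 50th percentile it fell below the filter and was not tested. Ccl22, a CCR4 ligand made by macrophages and dendritic cells, stood at 11.6 and 14.1 against 32.9 and 34.1. Its replicates were close together and its log2 change was 1.39 ± 0.42 (2.62-fold, adjusted p = 0.252). Ccl5, a ligand made by T cells and macrophages, stood at 15.2 and 10.7 against 48.9 and 17. Its change was 1.18 ± 0.62 (adjusted p = 0.496), and without null replicate 7 it fell below the filter and was not tested. Cxcr3, the receptor of interferon-induced chemokines on activated T cells, stood at 29.7 and 9 against 46.9 and 31.2 (1.23 ± 0.60, and 0.37 without control replicate 8). Ccl2, Ccl22, Ccl5 and Cxcr3 passed the filter through their null arrays only, so counts and medians over the tested chemokines are a description and lend no support.

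**Figure D3:**
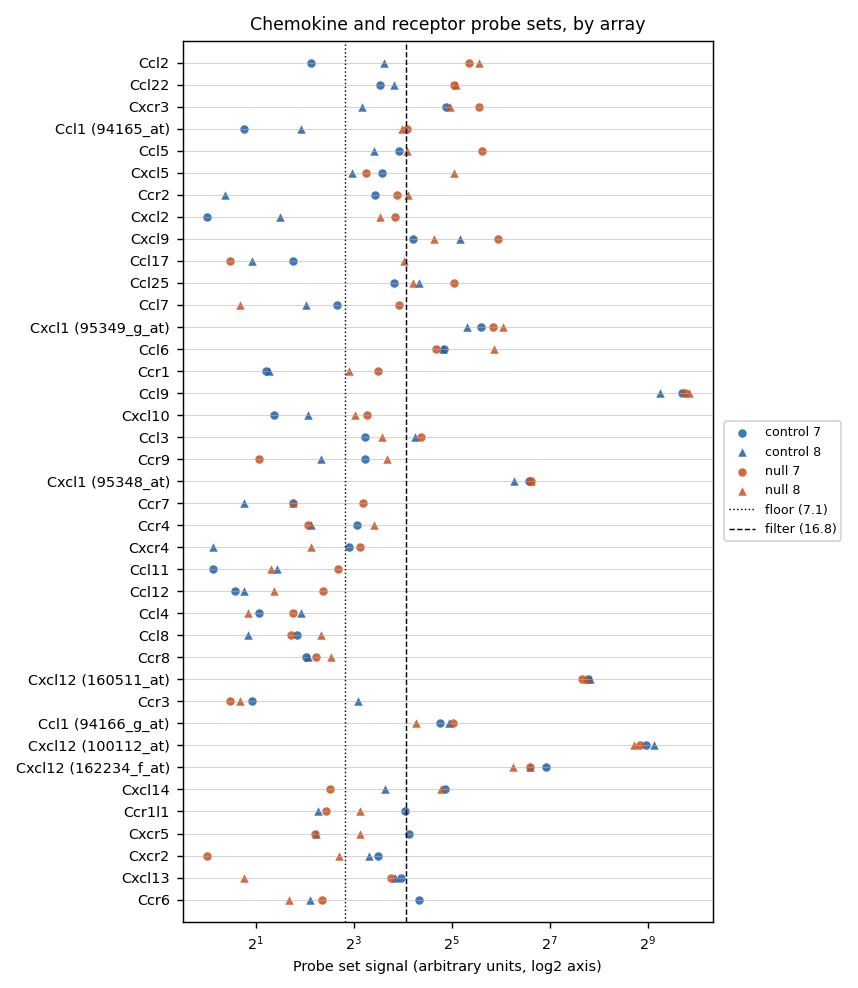
Signal of all 39 chemokine and receptor probe sets on the 4 arrays (log2 axis, arbitrary units), ordered by the change from control to null liver. Ccl2 and Ccl22 at the top have both null points right of both control points, most of the receptors lie left of the filter at 16.8, and Ccl9 and Cxcl12 lie far right of it on all arrays.

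The ligands Cxcl12, Cxcl1 and Ccl9 were measured well above background on every array. Cxcl12, the CXCR4 ligand of stromal and endothelial cells, stood at 498.2 and 555.1 against 457.8 and 422 (-0.26 ± 0.12, adjusted p = 0.436). Its other probe sets stood at 120.7 and 97.4 against 96.6 and 76.6 (-0.33 ± 0.20) and at 218.5 and 226.3 against 201.2 and 216.7 (-0.09 ± 0.13). On each of the 3 both null signals were below both control signals. Cxcl1, the neutrophil attractant, stood at 95.2 and 77.5 against 98.8 and 98.8 on one probe set (0.20 ± 0.18) and at 48.1 and 39.8 against 57.4 and 66.2 on another (0.49 ± 0.23, adjusted p = 0.442). Both of its probe sets were higher on both null arrays. Ccl9, a CCR1 ligand of macrophages, stood at 825.9 and 612.2 against 865.4 and 910.4 (0.32 ± 0.15, adjusted p = 0.447). The null arrays lay above control replicate 7 by little, since the control arrays themselves were apart.

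The remaining tested ligands had overlapping groups. Cxcl9, induced by interferon gamma, stood at 18.4 and 35.8 against 61.5 and 25. Ccl25, a CCR9 ligand, stood at 14.1 and 20.2 against 32.8 and 18.6. Ccl6, a myeloid ligand, stood at 28.8 and 28.2 against 25.6 and 58.3. The high null value belonged to replicate 7 for Cxcl9 and Ccl25 and to replicate 8 for Ccl6, and none of these changes (0.61 ± 0.52, 0.55 ± 0.49 and 0.44 ± 0.43) exceeded its error by much.

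Several ligands and receptors too dim to be tested also had null signals above control signals. Cxcl2, a neutrophil attractant, stood at 1 and 2.8 in control liver, both below the floor, and at 14.3 and 11.6 in null liver. Cxcl10, the interferon-induced CXCR3 ligand, stood at 2.6 and 4.2 against 9.6 and 8.1. Ccr2, the receptor of Ccl2 on monocytes, stood at 10.8 and 1.3 against 14.8 and 17.2. These null values lay above the floor and, except for Ccr2 on null replicate 8, under the filter. A Ccl1 probe set showed 1.7 and 3.8 against 16.9 and 15.9, while a brighter Ccl1 probe set had a change of -0.20 ± 0.39, so the probe sets of this gene disagreed. Ccr1 stood at 2.3 and 2.4 against 11.2 and 7.5. The neutrophil receptor Cxcr2 (11.3 and 9.9 against 1 and 6.5) and the B cell attractant Cxcl13 (15.6 and 14.4 against 13.6 and 1.7) were lower on both null arrays. Of the 25 untested probe sets, 5 had null signals above control signals without overlap and 2 below, that is 20% and 8%, against 9.05% and 7.26% of all untested probe sets.

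Over all 39 chemokine and receptor probe sets null signals lay above control signals without overlap in 12 (30.8%), against 15.7% of all probe sets, and below them in 5 (12.8%), against 16.7%. Signals at the floor were counted as tied. Of the 12, 9 were ligand and 3 receptor probe sets. Among the 14 tested, 10 changes were positive and 4 negative, where 48.9% of all tested probe sets were positive and 51.1% negative, and the median was 0.47. Groups did not overlap in 7 of the 14 with null higher and in 3 with null lower, against 20.4% and 23.4% of all tested probe sets. Ccl2, Ccl22, Ccl5 and Cxcr3 are among the 7 and passed the filter through their null arrays only. The counts and the median over the 14 therefore lend no support. Over all 39 the median was 0.20, against 0 over all probe sets. With the filter at the 50th percentile (27.1), which left 8 probe sets, it was 0.26. Cxcl9, at 18.4 and 35.8 against 61.5 and 25, passed that filter through its null arrays only. The median over the 8 therefore lends no support either, and it counts several probe sets each of Cxcl12 and Cxcl1. For genes with an NF-kB match upstream (Ccl1, Ccl9, Cxcl1, Cxcl2, Cxcl10, Ccr3 and Ccr6), 6 of 9 probe sets had both null arrays above both control arrays, namely those of Cxcl1, Cxcl2, Cxcl10 and Ccl9 and 1 of Ccl1. The share was 15.7% over all probe sets and 30.8% over the 39. Both probe sets of Cxcl1 are counted. Cxcl2, Cxcl10 and this Ccl1 probe set had both control signals below the floor and were not tested. The brighter Ccl1 probe set had overlapping groups, with a change of -0.20. Only 4 of the 9 were tested, and 0 passed.

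Values of neighbouring chemokine genes can be set side by side. Among the members Ccl2, Ccl7, Ccl11, Ccl12, Ccl8 and Ccl1 follow each other on chromosome 11. Of these Ccl2 and 1 probe set of Ccl1 were tested, Ccl7 stood at 6.3 and 4.1 against 15.1 and 1.6, and Ccl8, Ccl11 and Ccl12 were below the floor on all arrays. Among the members on chromosome 5, Cxcl5, Cxcl1 and Cxcl2 follow each other. Cxcl1 and Cxcl2 were higher on both null arrays, whereas Cxcl5 stood at 11.9 and 7.8 against 9.5 and 33.2. Genes outside the set were left out of this order on both chromosomes.

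**Figure D4:**
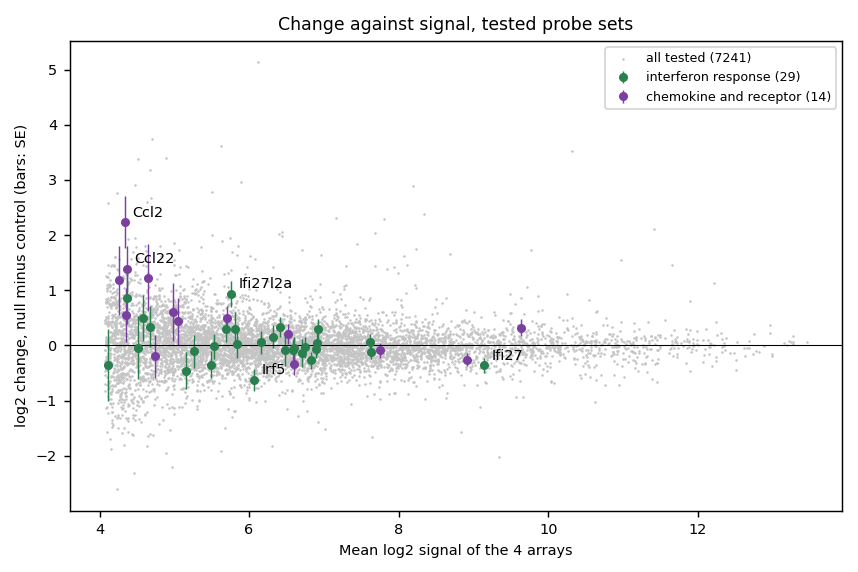
Log2 change from control to null liver (bars, SE) against the mean log2 signal of the 4 arrays, for all 7241 tested probe sets (grey) and the tested members; the 5 members at an unadjusted p under 0.05 are named. The largest chemokine changes, Ccl2 and Ccl22, lie at the dim end, where the grey points spread most.

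No other gene of these pathways passed the test. Of 14 tested genes of interferon receptors and signalling 0 rose and 0 fell, with 1 higher and 1 lower at an unadjusted p under 0.05 and a median of 0.07. Tyk2, a Janus kinase of the type I receptor, stood at 8.2 and 27.4 against 57.2 and 48.2 (1.81 ± 0.57, adjusted p = 0.268), and Cish, a STAT5-induced inhibitor, was at -0.58 ± 0.23. Tyk2 passed the filter through its null arrays only. Of 29 other tested interferon-induced genes 0 rose and 0 fell, with a median of -0.01. At an unadjusted p under 0.05 there were 5 higher and 1 lower, against 6.16% and 6.46% of all tested probe sets. Usp18, the protease that removes Isg15, stood at 39.4 and 44 against 74.5 and 66 (0.75 ± 0.21, adjusted p = 0.230), and Tap1, the peptide transporter of antigen presentation, was at 0.64 ± 0.21 (-0.09 on another, dimmer probe set). Ctss, a lysosomal protease, was at 0.36 ± 0.11, and Ifitm3, which blocks viral entry, at -0.28 ± 0.08.

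Of 18 tested cytokine and NF-kB response genes 0 rose and 0 fell, with 15 positive changes and a median of 0.35, where 48.9% of all tested probe sets were positive. At an unadjusted p under 0.05 there were 6 higher and 1 lower, against 6.16% and 6.46%. Among the 6, Nfkbie (9 and 13.6 against 27.8 and 38.9) and Il1rn (15.7 and 4 against 28.5 and 36.4) passed the filter through their null arrays only. The counts and the median of this list are therefore a description and lend no support. The adhesion molecule Vcam1 stood at 36.2 and 39.9 against 81.1 and 60.1 (0.88 ± 0.24, adjusted p = 0.217), and the macrophage growth factor Csf1 at 46.9 and 40.1 against 68.4 and 84.4 (0.81 ± 0.22, adjusted p = 0.216). Bcl3, an atypical NF-kB inhibitor, was at 0.46 ± 0.14, and the interleukin 1 receptor Il1r1 at -1.30 ± 0.22 (adjusted p = 0.0763). Of 6 further chemokine and receptor genes that were tested, 0 passed and 0 had an unadjusted p under 0.05, with a median of -0.12.

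Markers of cells that can make chemokines were measured on the same arrays. Of 12 Kupffer cell and macrophage markers 9 had positive changes, where 48.9% of all tested probe sets had. Of the 12, 1 passed the threshold (Mpeg1, higher), against 0.304% of all tested, and 3 were higher and 0 lower at an unadjusted p under 0.05, against 6.16% and 6.46%. Their summed signal was 1380.8 to 1415.3 on the control arrays and 1769.8 to 2023.2 on the null arrays. Mpeg1 (150 and 134.3 against 361.4 and 377.9) and Lyz2 (97.2 and 119.3 against 195.7 and 273.1) differed most. Csf1r (0.11 ± 0.15) and Adgre1 (0.14 ± 0.24) lay within their errors. The 3 negative changes were those of Clec4f (-0.01 ± 0.11), Mrc1 (-0.17 ± 0.20) and Msr1 (-0.46 ± 0.32). Of 9 stellate cell and fibroblast markers 8 had positive changes, against 48.9% of all tested probe sets, and 0 passed. At an unadjusted p under 0.05 there were 4 higher (Col1a1 at 1.81 ± 0.36, Col3a1 at 1.31 ± 0.34, Dcn and Lum) and 0 lower, against 6.16% and 6.46%. Their sums were 1256.1 to 1306.8 on the control arrays and 1578.4 to 1894.1 on the null arrays. Of 8 tested endothelial markers 4 were positive and 4 negative, and of 4 tested neutrophil markers 2 and 2, with Ngp at the floor on every array. The 2 positive neutrophil markers, Camp (11.5 and 12.3 against 28.8 and 22.9) and S100a8 (14.1 and 19 against 24.9 and 36.9), passed the filter through their null arrays only. Pecam1, a negative endothelial marker (19.4 and 28.3 against 33 and 4.1), passed it through its control arrays only. These counts therefore lend no support. Of 6 tested B and plasma cell markers 4 were positive, with Cd22 at the floor on every array. At an unadjusted p under 0.05 there were 1 higher (Ms4a1 at 0.88 ± 0.28) and 0 lower, against 6.16% and 6.46%. Of 4 tested monocyte and dendritic cell markers 2 were positive and 2 negative, with a median of 0.09. None of the 4 had an unadjusted p under 0.05, and Itgam and Fcgr3 were too dim to be tested. The part of these cells in the chemokine signals was not tested.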

How the data were processed

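RNA of 4 mouse livers or liver pools was hybridised to MG_U74Av2 arrays. The authors computed a signal intensity per probe set in GCOS from its perfect match and mismatch probes, with arrays scaled to total fluorescence, per the labels, which give no version. With no further normalisation, signals were floored at 7.1 and taken to log2, and 7241 of 12422 probe sets that are not manufacturer's controls passed the filter. Detection calls were not used here.

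A two-sided moderated test compared genotypes (limma 3.58.1, R 4.3.3, lmFit and eBayes with trend), with Benjamini-Hochberg adjustment over all tested probe sets and a threshold of 0.05. With 2 arrays per group an exact permutation test has a smallest p of 0.333 and was not used. The steps were also run on simulated data, with noise drawn from the fitted variances and independent probe sets. Such data follow the model of the test, so they cannot check it against these arrays.

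Symbols came from the platform annotation, and updating them through gene identifiers changed 0 members. A listed gene was represented by its brightest probe set. Members, lists, motifs and the rule for named genes were chosen with earlier results of these data known. Named with values are members of smallest p, all tested Stat and Irf members, preset genes, and genes of smallest p in each list. Other members were named after their values were seen. The alternatives were other floors, filters and variance models, quantile normalisation, each array left out, and a replicate block. Same-numbered arrays did not deviate together (correlation of deviations -0.03).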

Additional observations from a re-analysis of the deposited data

How the results depend on the processing

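No member passed an adjusted p under 0.05 in any of 500 values under the alternatives (43 probe sets). Of the 43, 24 kept their sign in the settings in which they were tested, among them Ccl2, Ccl22, Ifi27l2a, Irf5 and Ifi27. Ccl2 was not tested without either null array or with the filter at the 50th percentile, and some other dim members were also untested in some settings. The 28 probe sets called over the whole array became 1 with a floor at the 50th percentile, 0 without the filter, 0 without an intensity trend, 52 with the replicate block and 12 to 20 when an array was left out. The replicate block called 0 interferon response and 0 chemokine probe sets, and the numbers are not known to pair samples. The chemokine median of 0.47 became 0.26 with the filter at the 50th percentile, 0 with the floor there (which leaves all 39 probe sets in), 0.20 without a filter, 0.32 with log2(signal + 16) and 0.20 to 0.36 when an array was left out. The medians of 0.47 and 0.26 include probe sets that passed the filter through their null arrays only and lend no support. The interferon median ranged from -0.081 to 0.16 when an array was left out. Signs turned in 3 probe sets under other settings: Ccl1 to 0.041 (floor at the 50th percentile), Irf8 to -0.0036 (quantile normalisation) and the dimmer Irf7 probe set to 0.25 (floor at the 50th percentile) and 0.022 (pseudocount). They turned in 19 when an array was left out, 12 of them without null replicate 8. The log2 changes then ranged as Ccl1 -0.57 to 0.17, Ccl6 -0.15 to 1.03, Cxcl9 -0.038 to 1.26, Gbp2b -0.55 to 0.43, Gbp3 -0.31 to 0.095, Ifi204 -0.022 to 0.62, Ifi30 -0.046 to 0.37, Ifi47 -0.29 to 0.18, Irf1 -0.19 to 0.27, Irf2bp1 -0.18 to 0.064, Irf3 -0.20 to 0.045, Irf7 (brighter probe set) -0.51 to 0.34, Irf7 (dimmer probe set) -0.79 to 0.72, Irf8 -0.27 to 0.31, Irf9 -0.44 to 0.16, Isg20 -0.12 to 0.081, Stat3 -0.023 to 0.16, Stat5a (brighter probe set) -0.24 to 0.17, Stat5a (dimmer probe set) -0.11 to 0.21. The cause was not tested. With a signal and no counts, precision is limited by 2 arrays per group and by how far a signal lies above background.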

Other observations

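Probe sets whose annotation lists several symbols were kept out of the sets above, and 8 of them carry a member symbol. Of these 6 were tested and 0 passed in limma, with 2 at an unadjusted p under 0.05. A probe set shared by Ifi204, Ifi205, Ifi211 and Mndal stood at 45.7 and 56.3 in control liver and at 73.5 and 88.6 in null liver (log2 change 0.67 ± 0.22, adjusted p = 0.277). Both null arrays were the higher ones. A probe set of the Ccl27 genes stood at 54.3 and 47.6 against 26.7 and 35.3 (-0.73 ± 0.27, adjusted p = 0.344), while another of the same genes was at 0.10 ± 0.31. The Ccl19 probe set stood at 217.9 and 214.2 against 262.1 and 205, with overlapping groups. A probe set shared by Gbp4 and Gbp8 stood at 26.9 and 28.4 against 10.7 and 18.5 (-0.97 ± 0.48, adjusted p = 0.465). It was lower on both null arrays and passed the filter through its control arrays only.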
